A study of Homo sapiens with 4 samples.

Results

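The 52 genes described here are Wnt ligands, their receptors, planar cell polarity genes and secreted or membrane modulators of the pathway. They were chosen by name from a list, drawn up with earlier results of these data known. They are 52 of the 58522 genes in the count table. RNA-seq was run on Ishikawa cells, a human endometrial adenocarcinoma line that the labels class as an endometrial epithelial cell. In the control group, 2 libraries came from cells given a negative control shRNA, and in the CDYL-sh group, 2 libraries came from cells given an shRNA against CDYL. Per the methods of the study, the hairpins were carried by a plasmid with a ZsGreen reporter and a puromycin resistance gene, and both groups were transduced and selected with puromycin. The labels do not say whether separate cultures gave the libraries of each group, or whether both CDYL-sh libraries carried the same hairpin, so p-values measure only the spread between these libraries, which may be technical.

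Wnt proteins are secreted lipid-modified ligands that bind frizzled receptors together with a co-receptor. With LRP5 or LRP6 they stabilise beta-catenin, the product of CTNNB1, and with other partners they act through the planar cell polarity machinery on the cytoskeleton and on cell movement. In the endometrium, Wnt signalling is known for its part in gland formation, in the menstrual cycle and in implantation.

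CDYL (ENSG00000153046), which encodes a chromodomain corepressor, was checked first. Its level was 50.4 and 53.0 CPM in the control libraries and 11.4 and 9.70 CPM in the CDYL-sh libraries, where CPM are the usual depth-scaled counts, here on library sizes normalised by the trimmed mean of M-values (TMM). The CDYL-sh libraries therefore held 20.6% of the control level (log2 fold change -2.28 ± 0.13 SE, n = 2 and 2, adjusted p = 4.26e-09 with edgeR's quasi-likelihood test and Benjamini-Hochberg adjustment over 16158 genes). All adjusted p-values of genes given from here on come from that test, with a threshold of 0.05, unless another fit is named. Total counts were between 22341852 and 27688447 per library, so the floor that 3 counts set lay between 0.107 and 0.136 CPM, and it covers counting error only. Of 12 epithelial markers, none was at 0 and their summed level was 4071 to 4522 CPM. Of 10 fibroblast and stromal markers, COL3A1, DCN, FAP and POSTN were at 0 in all libraries, and 7 lay under 1 CPM in every library. The summed level was 23.8 and 26.1 CPM in control and 18.0 and 16 CPM in CDYL-sh, most of it COL1A1 and COL1A2. COL1A1 alone went from 13.0 and 16.4 to 8.82 and 7.75 CPM, and COL1A2 from 9.05 and 8.25 to 7.78 and 6.93 CPM. Of 8 endothelial markers EMCN was at 0, and the sums were 4.99 and 5.13 against 8.86 and 9.52 CPM. PECAM1 alone went from 1.62 and 1.96 to 5.21 and 6.34 CPM. Of the 5 endothelial markers tested, 3 had estimates below 0 and 2 above. Of 10 immune markers, CD3E and MS4A1 were at 0, 9 lay under 1 CPM in every library, and the sums were 8.44 and 12.5 against 21.7 and 18.8 CPM, most of it CD68. The part of these marker differences in the results was not tested. In bulk RNA, fewer cells of a type and less RNA per cell cannot be told apart.

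Of the 52 genes, 41 had enough counts to be tested. The other 11 were WNT4, WNT5A, WNT6, WNT10A, FZD10, LGR6, SFRP1, SFRP4, DKK4, WIF1 and PRICKLE2, with 0 to 15 counts in each library. In the CDYL-sh libraries 3 of the 41 rose, which is 7.32% of those tested, while 13.6% of all 16158 genes tested rose. A further 12 fell, which is 29.3%, while 12.1% of all genes tested fell. Since earlier results were known when the list was drawn up, these shares are not those of a set chosen blind. The genes that rose were LGR5, CELSR3 and ROR1. The genes that fell were RNF43, RYK, PRICKLE1, VANGL2, CELSR2, FZD7, ROR2, KREMEN1, FZD1, VANGL1, FZD5 and CELSR1. The other 26 did not pass the test. Over the 41 genes the log2 fold changes had a median of -0.27, with 28 estimates below 0 and 13 above, and the median over all genes tested was 0.01. By role, 5 of 6 tested planar polarity genes and 3 of 9 tested frizzled genes fell, and all 3 kinase-like receptors of the 52 changed. Of the tested genes in other roles, 0 of 7 ligands, 0 of 2 export genes, 0 of 2 co-receptors and 0 of 4 secreted antagonists passed. Over all genes tested, 4157 of 16158 passed. The roles hold few genes and differ in standard error, for example 0.64 for SFRP5 and 0.10 for CELSR1. Differences between roles were not tested. At an unadjusted p under 0.05, edgeR's test counted 0 ligands, 0 export genes, 2 co-receptors (LRP5 and LRP6) and 1 secreted antagonist (DKK1). In these roles DESeq2 called 0, and limma-voom called DKK1 and 0 of the others. Over all 16158 genes tested, 6093 had an unadjusted p under 0.05 with edgeR, DESeq2 called 3524 and limma-voom called 4221. The numbers that rose and fell among the 41 changed when 1 library was left out, as did the calls over all genes. Such a fit leaves 1 library in its group.

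**Figure D1:**
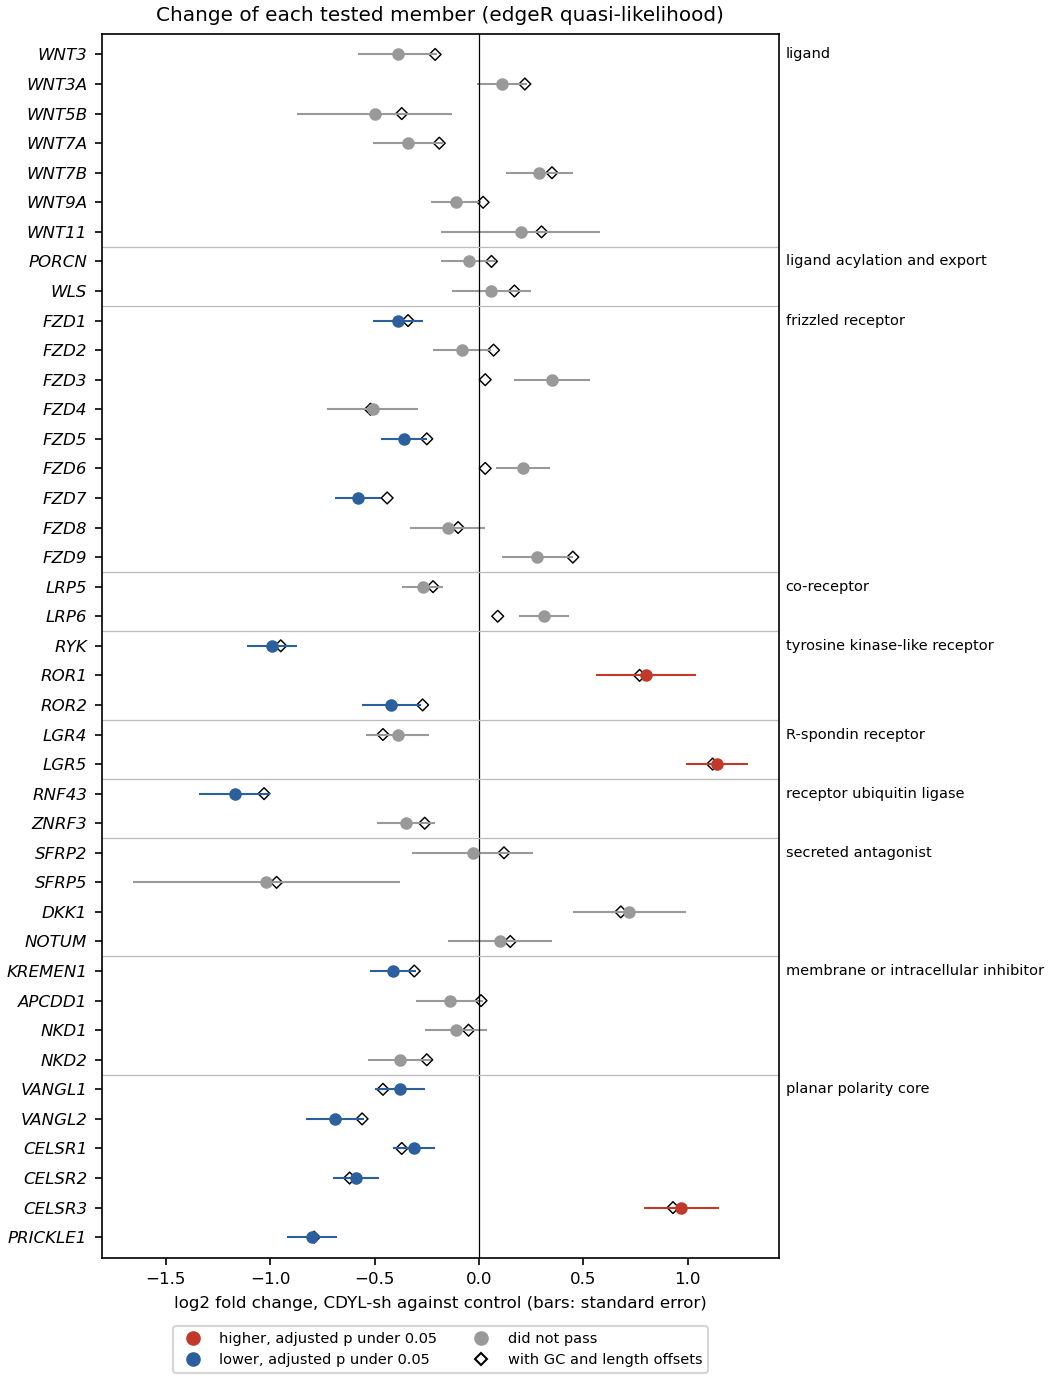
Log2 fold change of each of the 41 tested genes (x axis, CDYL-sh against control), grouped by role, with bars for the standard error and colours for the test at an adjusted p under 0.05. Open diamonds give the same value with offsets for GC content and transcript length. LGR5 lies farthest to the right at 1.14 and RNF43 farthest to the left at -1.17 among the genes that passed.

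Stretches of the start regions are shown for 5 of the genes that changed and for DKK1, as examples of the base composition and motifs counted in the next paragraph, which the list did not use. Each runs over the 250 bases before the RefSeq transcription start, on GRCh38.p14, read on the strand of the gene. CELSR3 is on the minus strand at chr3:48662887-48663136, ROR1 on the plus strand at chr1:63773767-63774016, and RYK on the minus strand at chr3:134250860-134251109. VANGL2 is on the plus strand at chr1:160400314-160400563, CELSR2 on the plus strand at chr1:109249289-109249538, and DKK1 on the plus strand at chr10:52314031-52314280. Capitals mark the GC box GGGCGG, the CCAAT box CCAAT, the TATA box TATAAA and the TCF/LEF core CTTTGA on either strand, the reverse complements included.
CELSR3: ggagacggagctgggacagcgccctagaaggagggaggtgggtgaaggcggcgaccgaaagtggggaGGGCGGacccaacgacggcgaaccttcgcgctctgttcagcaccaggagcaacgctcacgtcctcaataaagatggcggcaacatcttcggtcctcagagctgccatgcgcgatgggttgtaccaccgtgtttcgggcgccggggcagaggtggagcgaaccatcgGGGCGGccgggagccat
ROR1: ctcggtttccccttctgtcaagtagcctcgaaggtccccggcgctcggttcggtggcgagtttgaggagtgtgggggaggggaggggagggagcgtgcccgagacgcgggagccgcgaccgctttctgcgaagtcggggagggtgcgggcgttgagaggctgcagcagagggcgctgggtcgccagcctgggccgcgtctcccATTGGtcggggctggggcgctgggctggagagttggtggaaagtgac
RYK: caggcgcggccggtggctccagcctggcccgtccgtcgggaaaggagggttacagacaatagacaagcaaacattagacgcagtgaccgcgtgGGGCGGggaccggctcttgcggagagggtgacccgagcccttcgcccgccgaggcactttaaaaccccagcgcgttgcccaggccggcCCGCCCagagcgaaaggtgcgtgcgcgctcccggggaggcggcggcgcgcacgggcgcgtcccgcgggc
VANGL2: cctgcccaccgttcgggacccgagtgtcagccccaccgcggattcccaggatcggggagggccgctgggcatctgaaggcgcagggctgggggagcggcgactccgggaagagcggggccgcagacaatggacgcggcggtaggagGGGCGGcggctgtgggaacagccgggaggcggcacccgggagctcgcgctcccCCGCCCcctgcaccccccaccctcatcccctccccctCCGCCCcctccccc
CELSR2: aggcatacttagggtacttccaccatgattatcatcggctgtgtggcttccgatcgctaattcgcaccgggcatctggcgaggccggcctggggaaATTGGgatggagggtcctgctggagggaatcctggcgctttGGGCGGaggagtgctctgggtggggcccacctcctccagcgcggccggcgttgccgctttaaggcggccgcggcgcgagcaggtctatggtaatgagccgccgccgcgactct
DKK1: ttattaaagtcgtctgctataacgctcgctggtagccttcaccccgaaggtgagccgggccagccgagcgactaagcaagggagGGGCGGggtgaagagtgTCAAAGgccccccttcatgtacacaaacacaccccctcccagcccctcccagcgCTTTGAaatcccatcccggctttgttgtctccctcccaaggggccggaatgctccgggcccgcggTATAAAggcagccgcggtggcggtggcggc

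A start region was found for 36 of the 52 genes, 45 windows in all, since some genes have more than 1 start. Their GC content ran from 45.2% to 87.2%, with a median of 68.8% and a median of 24 CpG, against 58.0% and 11 CpG over all 35116 windows of the same length in the RefSeq table. The GC box was in 31 of 45 windows (68.9%) and in 42.6% of all windows. The CCAAT box was in 33.3% of member windows and 32.0% of all, and TATAAA was in 6.67% and 10.7%. The letters CTTTGA, the core that TCF and LEF factors bind downstream of beta-catenin, were in 2 of 45 windows (4.44%) and in 11.2% of all windows. The 2 windows were that of DKK1, which holds the core on both strands, and 1 of the windows of PORCN. None of the 13 windows of the 11 called genes that had a window held it. The E-box CACGTG was in 0 of 45 member windows and in 6.34% of all. The windows of RNF43 were poor in CpG, with 4 and 0, and held no GC box. The windows of the tested genes held a median of 25 CpG and those of the genes under the count filter 15.5. A match of letters is a description of the window only, and a missing match says only that the letters are not in it.

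None of the tested ligands among the 52 genes passed. The 52 hold 11 Wnt ligand genes, of which 7 were tested, while WNT4, WNT5A, WNT6 and WNT10A were under the filter. WNT10B, a ligand outside the 52, fell and is given with the other extracellular genes. Per length, in the fragments per kilobase scaled to depth (FPKM) that the authors deposited, WNT3A was the most abundant, with 17.1 and 19.0 FPKM in control and 18.6 and 20.6 FPKM in CDYL-sh, which is 39.0% to 51.2% of the summed FPKM of the ligands. WNT3A, a ligand that classically activates beta-catenin, stood at 44.7 and 50.7 CPM in control and 48.0 and 54.9 CPM in CDYL-sh, so the groups overlapped (log2 fold change 0.11 ± 0.12 SE, adjusted p = 0.547). WNT9A came next with a mean of 8.41 FPKM, and its log2 fold change was -0.11. WNT7A and WNT7B, of which WNT7A is known for its role in the uterine epithelium, had log2 fold changes of -0.34 (adjusted p = 0.148) and 0.29 (adjusted p = 0.186). WNT3 had -0.39 (adjusted p = 0.14) and WNT11, a ligand known for beta-catenin-independent signalling, 0.20 (adjusted p = 0.719). The summed ligand level was 113 and 125 CPM in control and 114 and 121 CPM in CDYL-sh, and these ranges overlap. By FPKM it was 43.9 and 46.4 against 38.8 and 40.3, without overlap. WNT5B, whose FPKM are taken up in the next paragraph, made up 16.2% and 15.3% of that FPKM sum in control. In CDYL-sh its share was 1.75% and 3.87%. Without control library 1, WNT7A passed with a log2 fold change of -0.55 (adjusted p = 0.0164).

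WNT5B, a ligand of the non-canonical branch, gave different pictures in the 2 deposited units. Its counts were 47 and 45 in control and 27 and 31 in CDYL-sh, or 1.69, 1.70, 0.964 and 1.40 CPM, and it did not pass the test (log2 fold change -0.50 ± 0.37 SE, adjusted p = 0.324). Its deposited FPKM were 7.10 and 7.12 in control and 0.68 and 1.56 in CDYL-sh. On log2(FPKM + 1), limma gave a fold change of -1.97 ± 0.24 SE with an adjusted p of 0.0363, a scale that understates the change of low genes. The length that the count, the FPKM and the library total together imply was 0.239 and 0.234 kb in control and 1.45 and 0.889 kb in CDYL-sh, a range of 6.17-fold over the 4 libraries. The FPKM difference thus came with a difference in the length the authors' estimate assigned to the gene, and its part in the result was not tested.

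The acylation and export of ligands rest on PORCN, the acyltransferase that lipidates Wnt proteins, and on WLS, the carrier that takes them to the surface. PORCN was at 26.5 and 24.6 CPM in control and 24.5 and 24.7 CPM in CDYL-sh (log2 fold change -0.05 ± 0.13 SE, adjusted p = 0.793). WLS was at 6.46 and 7.65 CPM against 7.53 and 7.21 CPM (log2 fold change 0.06 ± 0.19 SE, adjusted p = 0.835). In both genes the groups overlapped.

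**Figure D2:**
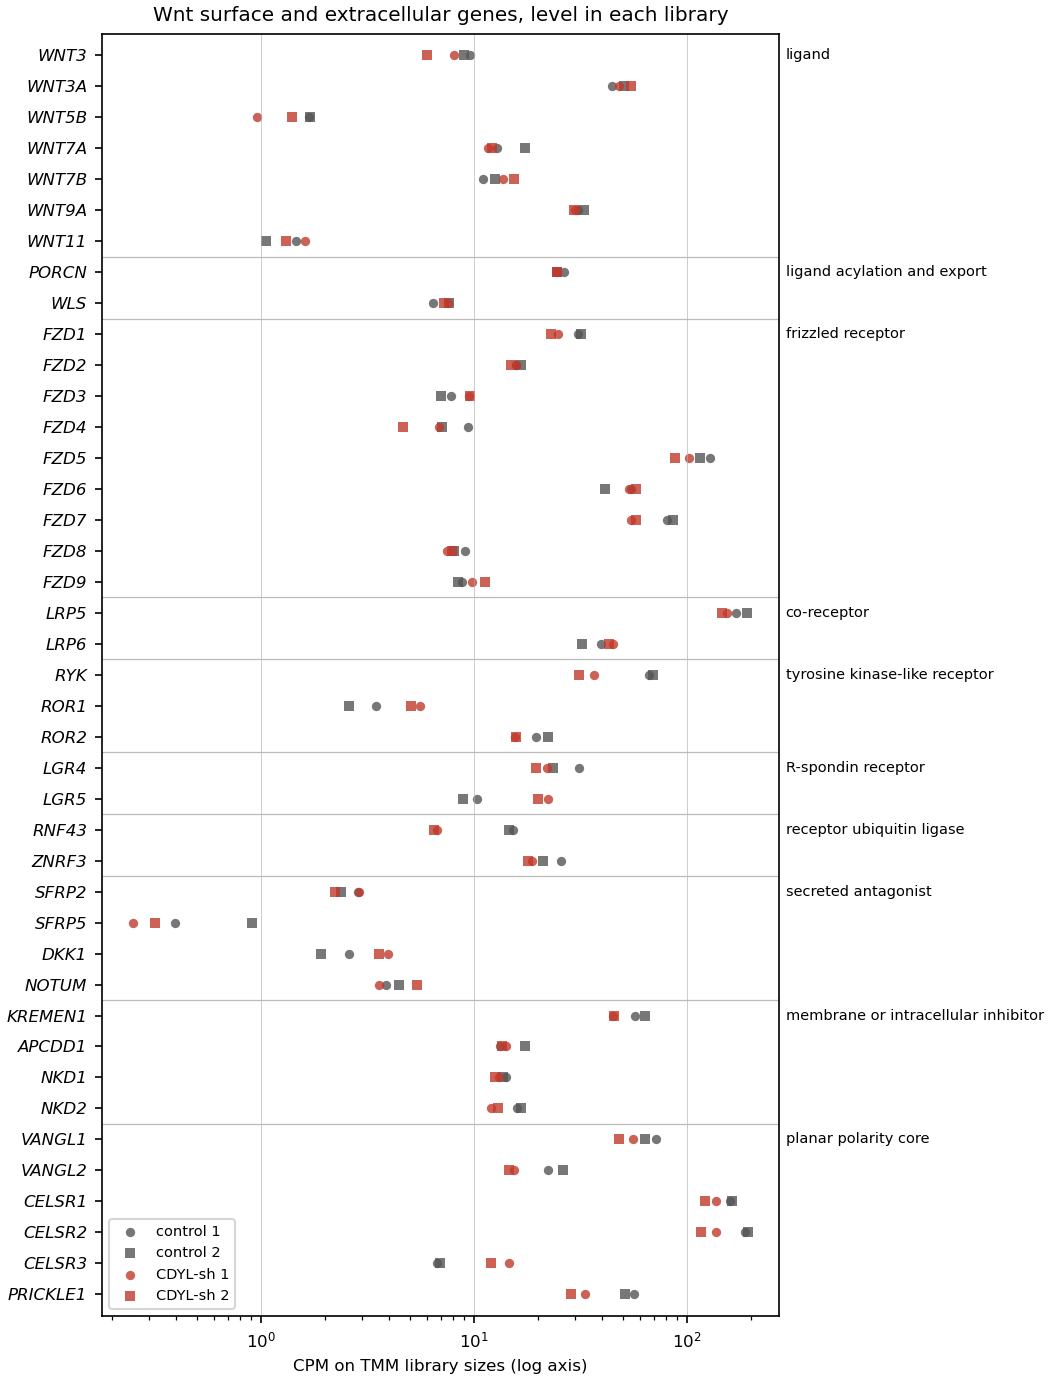
Level of each tested gene in each of the 4 libraries, in CPM on a log axis, grouped by role. Grey points are the control libraries and red points the CDYL-sh libraries. The red points of LGR5, CELSR3 and ROR1 lie to the right of the grey, those of RYK, RNF43 and PRICKLE1 to the left, and those of PORCN and WNT3A overlap the grey.

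Of 10 frizzled receptor genes, which encode the membrane receptors that bind Wnt ligands directly, 9 were tested, 3 fell, 0 rose and FZD10 had no count in any library. FZD7, known from epithelial stem cells and the frizzled gene with the lowest adjusted p here, was at 81.0 and 86.3 CPM in control and 54.6 and 57.6 CPM in CDYL-sh. The groups did not overlap, and the CDYL-sh level was 67.1% of control (log2 fold change -0.58 ± 0.11 SE, adjusted p = 0.000783). FZD7 (ENSG00000155760) is on the plus strand at chr2:202033855-202038441 in GENCODE 44 on GRCh38, the source of all gene positions given here.

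FZD5, a receptor of epithelia, had the highest mean level of the frizzled genes in CPM and in FPKM, with 129 and 115 CPM in control and 102 and 87.9 CPM in CDYL-sh. The groups did not overlap, though control library 2 and CDYL-sh library 1 lay close (log2 fold change -0.36 ± 0.11 SE, adjusted p = 0.023). The call was lost without control library 1 (adjusted p = 0.176) and without CDYL-sh library 2 (adjusted p = 0.272). FZD1 was at 30.9 and 32.0 CPM in control and 24.9 and 23.0 CPM in CDYL-sh (log2 fold change -0.39 ± 0.12 SE, adjusted p = 0.0267). Its groups did not overlap, and its call was lost without CDYL-sh library 1 (adjusted p = 0.0637) or 2 (adjusted p = 0.266).

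The other 6 tested frizzled genes did not pass, with estimates on both sides of 0. FZD6, a receptor tied to planar polarity, was at 54.6 and 41.2 CPM in control and 53.7 and 57.5 CPM in CDYL-sh, with overlapping groups (log2 fold change 0.21). FZD4 had a log2 fold change of -0.51 (adjusted p = 0.0941), FZD3 had 0.35 (adjusted p = 0.154) and FZD9 had 0.28 (adjusted p = 0.245). FZD2 and FZD8 had -0.08 and -0.15. FZD4 passed without control library 2 (-0.69, adjusted p = 0.00406) and without CDYL-sh library 1 (-0.83, adjusted p = 0.0283), and FZD6 passed without control library 1 (0.42, adjusted p = 0.0423). FZD4 shares exon sequence with PRSS23 on the opposite strand and FZD6 with BAALC-AS1, and whether reads were counted by strand is not given in the sources used here beyond an alignment in orientation mode. Summed over the family, the level was 346 and 322 CPM in control and 285 and 274 CPM in CDYL-sh. FZD7 made up 23.4% and 26.8% of that sum in control and 19.2% and 21.0% in CDYL-sh, and FZD6 15.8% and 12.8% against 18.9% and 21.0%. A sum has 4 values, for which the smallest exact permutation p is 0.333, so these sums are given without a test.

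The co-receptors did not pass in either direction. LRP5, which joins frizzled receptors at the start of beta-catenin signalling, was the most abundant of the 41 genes per length, with a mean of 54.2 FPKM, at the 85.0th percentile of all tested genes. Its level was 171 and 192 CPM in control and 154 and 147 CPM in CDYL-sh (log2 fold change -0.27 ± 0.10 SE, adjusted p = 0.0677). The groups did not overlap in CPM, but the deposited FPKM of LRP5 were 54.2 and 54.4 in control and 54.2 and 53.9 in CDYL-sh. LRP6, its close relative, was at 39.4 and 32.1 CPM in control and 45.1 and 43.3 CPM in CDYL-sh (log2 fold change 0.31 ± 0.12 SE, adjusted p = 0.0785), and it passed without control library 1 (0.45, adjusted p = 0.033). LRP6 made up 18.7% and 14.4% of the summed CPM of the pair in control and 22.6% and 22.8% in CDYL-sh, but by FPKM its share was 12.5% and 14.0% against 14.9% and 11.3%, with overlap.

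All 3 kinase-like receptors outside the frizzled family passed, RYK and ROR2 as lower and ROR1 as higher. RYK, an atypical receptor tyrosine kinase that binds Wnt proteins and guides cells and axons, was at 66.3 and 69.3 CPM in control and 36.7 and 31.3 CPM in CDYL-sh. Both CDYL-sh libraries lay well under both controls, at 50.3% of the control level (log2 fold change -0.99 ± 0.12 SE, adjusted p = 1.43e-05). RYK (ENSG00000163785) is on the minus strand at chr3:134065303-134250859, and its start region is printed above. Of the 15 called genes, RYK alone passed under all 16 alternatives run, with adjusted p-values from 2.4e-13 to 0.0386.

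ROR2, the receptor through which WNT5A acts on polarity and movement, was at 19.6 and 22.4 CPM in control and 15.6 and 15.8 CPM in CDYL-sh. The groups did not overlap (log2 fold change -0.42 ± 0.14 SE, adjusted p = 0.0347). The call was lost without control library 2 (adjusted p = 0.106), without CDYL-sh library 1 (0.154) or 2 (0.194), with DESeq2 (0.0571), with library size only (0.0512) and with offsets for GC content and length (0.065). ROR1, its paralogue and an embryonic receptor that many tumours express, moved the other way. It was at 3.48 and 2.60 CPM in control and 5.61 and 5.08 CPM in CDYL-sh, which are 69 to 157 counts (log2 fold change 0.80 ± 0.24 SE, adjusted p = 0.0182). Its groups did not overlap, and its call was lost without control library 2 (adjusted p = 0.0604) and without CDYL-sh library 1 (0.111) or 2 (0.0503). The summed level of RYK, ROR1 and ROR2 was 89.4 and 94.2 CPM in control and 58.0 and 52.2 CPM in CDYL-sh. RYK was 74.1% and 73.5% of that sum in control and 63.4% and 59.9% in CDYL-sh, and ROR1 went from 3.90% and 2.76% to 9.67% and 9.73%. The ligand WNT5A itself had 1, 0, 0 and 0 counts, so a change in it was not detectable at this depth.

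Among the R-spondin receptors, which bind R-spondins and so shield frizzled receptors from degradation, LGR5 rose. LGR5, a Wnt target itself and a marker of epithelial stem cells, was at 10.3 and 8.93 CPM in control and 22.4 and 20.1 CPM in CDYL-sh. Both CDYL-sh libraries were above both controls, 2.20-fold on average (log2 fold change 1.14 ± 0.15 SE, adjusted p = 4.37e-05), the largest rise of the 41 genes. LGR5 (ENSG00000139292) is on the plus strand at chr12:71439798-71586310 and overlaps the exons of an unnamed antisense gene. LGR4, the receptor with the broader expression, was at 31.1 and 23.6 CPM in control and 22 and 19.5 CPM in CDYL-sh (log2 fold change -0.39 ± 0.15 SE, adjusted p = 0.0534). It did not pass, though it did under 6 of 16 alternatives, with adjusted p-values from 0.000505 to 0.397 over all of them, the lowest without control library 2 (-0.58). LGR6 had between 5 and 15 counts in each library and was not tested.

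The shares of LGR4 and LGR5 within the receptor set are given next, without a test. LGR5 was 24.6% and 27.2% of the summed CPM of the 3 LGR genes in control and 50.2% and 50.5% in CDYL-sh, and by FPKM it was 26.4% and 30.0% against 54.1% and 54.7%. The sum was 42.0 and 32.8 CPM in control and 44.7 and 39.9 CPM in CDYL-sh, with overlapping ranges.

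The ligases RNF43 and ZNRF3 remove frizzled receptors from the cell surface, an action that R-spondins block. RNF43, itself induced by Wnt signalling, was at 15.2 and 14.7 CPM in control and 6.75 and 6.48 CPM in CDYL-sh. The groups were far apart, with CDYL-sh at 44.5% of control (log2 fold change -1.17 ± 0.17 SE, adjusted p = 7.29e-05), the largest fall among the genes that passed. By FPKM it was 3.98 and 3.15 in control and 1.65 and 2.40 in CDYL-sh, a log2 ratio of means of -0.82 against -1.18 by CPM, and the length implied by count and FPKM varied 1.72-fold between libraries. RNF43 (ENSG00000108375), on the minus strand at chr17:58353676-58417595, shares exon sequence with an unnamed gene on its own strand and with TSPOAP1-AS1 on the other, and its expected counts were not whole in 3 of 4 libraries, so reads may be split between genes. ZNRF3 was at 25.7 and 21.2 CPM in control and 18.7 and 17.9 CPM in CDYL-sh, with no overlap of the groups (log2 fold change -0.35 ± 0.14 SE, adjusted p = 0.0699). It passed without control library 2 (-0.49, adjusted p = 0.00581). The sum of the pair was 40.9 and 35.9 CPM in control and 25.5 and 24.4 CPM in CDYL-sh.

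**Figure D3:**
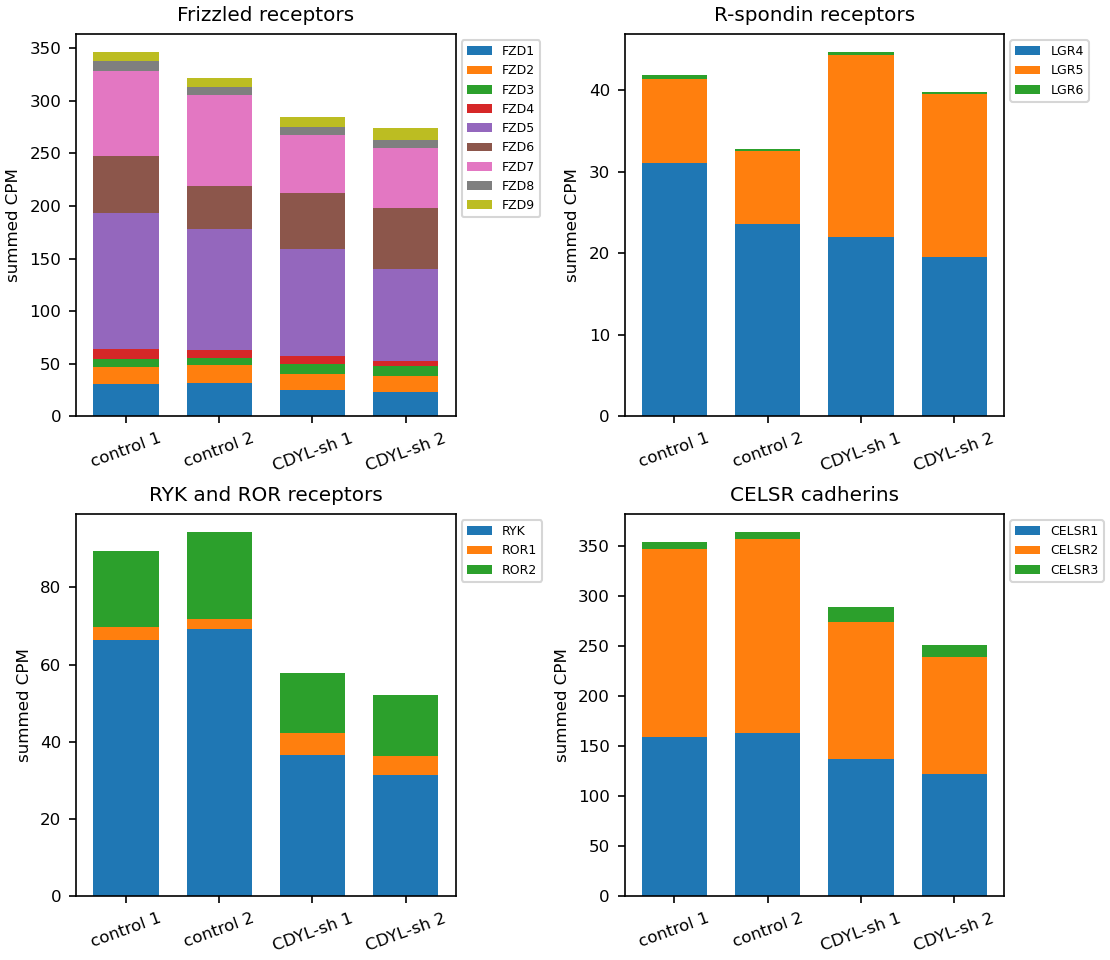
Summed CPM of 4 receptor families in each library (y axis, from 0), stacked by gene. LGR5 takes 24.6% and 27.2% of the R-spondin receptors in control and 50.2% and 50.5% in CDYL-sh, and the sums of the RYK and ROR receptors, of the CELSR cadherins and of the frizzled receptors lie under both controls in each CDYL-sh library.

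No secreted antagonist passed the test. DKK1, which blocks LRP5 and LRP6 and is itself a target of beta-catenin, was at 2.58 and 1.92 CPM in control and 3.96 and 3.58 CPM in CDYL-sh, or 51 to 111 counts, and its exons overlap PRKG1-AS1 on the other strand. The groups did not overlap, and the value lay just outside the threshold (log2 fold change 0.72 ± 0.27 SE, adjusted p = 0.0511). DKK1 passed under 8 of 16 alternatives, with adjusted p-values from 0.0361 to 0.236 over all of them, and without control library 1 its log2 fold change was 0.94 (adjusted p = 0.0376). NOTUM, the enzyme that removes the lipid of Wnt ligands, had a log2 fold change of 0.10 (adjusted p = 0.805). SFRP2, a soluble frizzled-related protein, had -0.03 (adjusted p = 0.955). SFRP5 had 7 to 24 counts and a log2 fold change of -1.02 ± 0.64 SE (adjusted p = 0.175). SFRP1, SFRP4 and DKK4 had no counts, and WIF1 had 3 to 8.

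Of the membrane and intracellular inhibitors, KREMEN1 fell. KREMEN1, a receptor of DKK1 that takes LRP6 off the surface, was at 57.3 and 63.5 CPM in control and 44.8 and 45.7 CPM in CDYL-sh. The groups did not overlap (log2 fold change -0.41 ± 0.11 SE, adjusted p = 0.0112), and the call was lost without control library 2 (adjusted p = 0.0604) and without CDYL-sh library 1 (0.0524) or 2 (0.0617). NKD1 and NKD2 bind Dishevelled and restrain the pathway, and their log2 fold changes were -0.11 (adjusted p = 0.638) and -0.38 (adjusted p = 0.0669). NKD2 was at 16 and 16.7 CPM in control and 12.1 and 13.0 CPM in CDYL-sh, without overlap. APCDD1, a membrane inhibitor of Wnt signalling, had -0.14 (adjusted p = 0.546).

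The planar polarity core sorts itself to opposite sides of a cell and aligns cells within an epithelium. It consists of the CELSR cadherins, the VANGL membrane proteins, frizzled receptors and the cytoplasmic PRICKLE and Dishevelled proteins. The 7 genes counted in this role are CELSR, VANGL, PRICKLE1 and PRICKLE2 genes, while frizzled and Dishevelled genes are counted elsewhere. PRICKLE2 had no counts, 5 of the 6 tested fell and CELSR3 rose. Among the Dishevelled genes, DVL1 rose (log2 fold change 0.31, adjusted p = 0.0401), and DVL2 (-0.05) and DVL3 (-0.14) did not pass. PRICKLE3, counted among the effectors below, did not pass either (0.15).

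PRICKLE1, which binds VANGL2 on its side of the cell, was at 56.5 and 51.3 CPM in control and 33.2 and 28.7 CPM in CDYL-sh. The groups were well apart, with CDYL-sh at 57.5% of control (log2 fold change -0.80 ± 0.12 SE, adjusted p = 0.000135). PRICKLE1 (ENSG00000139174, minus strand, chr12:42456757-42590355) shares exon sequence with PPHLN1 on the other strand. VANGL2, the partner in that complex, was at 22.3 and 26.2 CPM in control and 15.5 and 14.6 CPM in CDYL-sh (log2 fold change -0.69 ± 0.14 SE, adjusted p = 0.00162). VANGL1 was at 71.9 and 63.5 CPM against 56.2 and 47.9 CPM (log2 fold change -0.38 ± 0.12 SE, adjusted p = 0.0242). In neither did the groups overlap, and the call of VANGL1 was lost without control library 1 (adjusted p = 0.167) and without CDYL-sh library 2 (adjusted p = 0.29). VANGL1 was 70.8% to 78.4% of the summed CPM of the VANGL pair in the 4 libraries.

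The CELSR cadherins are very large adhesion receptors that bridge neighbouring cells. CELSR2 was at 188 and 194 CPM in control and 137 and 117 CPM in CDYL-sh, with no overlap (log2 fold change -0.59 ± 0.11 SE, adjusted p = 0.000675). CELSR1 was at 159 and 163 CPM in control and 137 and 122 CPM in CDYL-sh (log2 fold change -0.31 ± 0.10 SE, adjusted p = 0.0357). Its deposited FPKM were 22.25 and 22.38 in control and 21.64 and 19.07 in CDYL-sh, a log2 ratio of means of -0.13 against -0.31 by CPM. The call of CELSR1 was lost without control library 1 (adjusted p = 0.11) or 2 (0.12), without CDYL-sh library 2 (0.331), with upper quartile normalization (0.0529) and with library size only (0.0512). CELSR3, best known in neurons, was at 6.75 and 6.93 CPM in control and 14.7 and 12.1 CPM in CDYL-sh, and both CDYL-sh libraries exceeded both controls. Its log2 fold change was 0.97 ± 0.18 SE (adjusted p = 0.000636). CELSR3 (ENSG00000008300) is on the minus strand at chr3:48636463-48662886, directly beside its start region printed above. The summed level of the cadherins was 354 and 364 CPM in control and 289 and 251 CPM in CDYL-sh, and the share of CELSR3 in it was 1.91% and 1.91% against 5.11% and 4.80%.

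Fewer members passed on the deposited FPKM than on the counts. With limma on log2(FPKM + 1) or log2(FPKM + 0.1), RYK and WNT5B passed, and 14 of the 15 genes called from the counts did not, and over all genes tested that fit called 461 or 507 against 4157 from the counts. The length implied by count and FPKM varied over 1.5-fold between libraries in 7 of the 40 members with at least 0.5 FPKM (17.5%), against 9.58% of 13862 genes. These were APCDD1, CELSR3, FZD3, LRP6, RNF43, WNT11 and WNT5B. It varied by at most 5% in 16 of the 40 (40.0%) and in 36.8% of all, and FZD7, VANGL2 and FZD1 belong to those. The log2 ratios of mean FPKM and of mean CPM differed by over 0.3 in 5 members, WNT5B, RNF43, APCDD1, LRP6 and PRICKLE1.

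**Figure D4:**
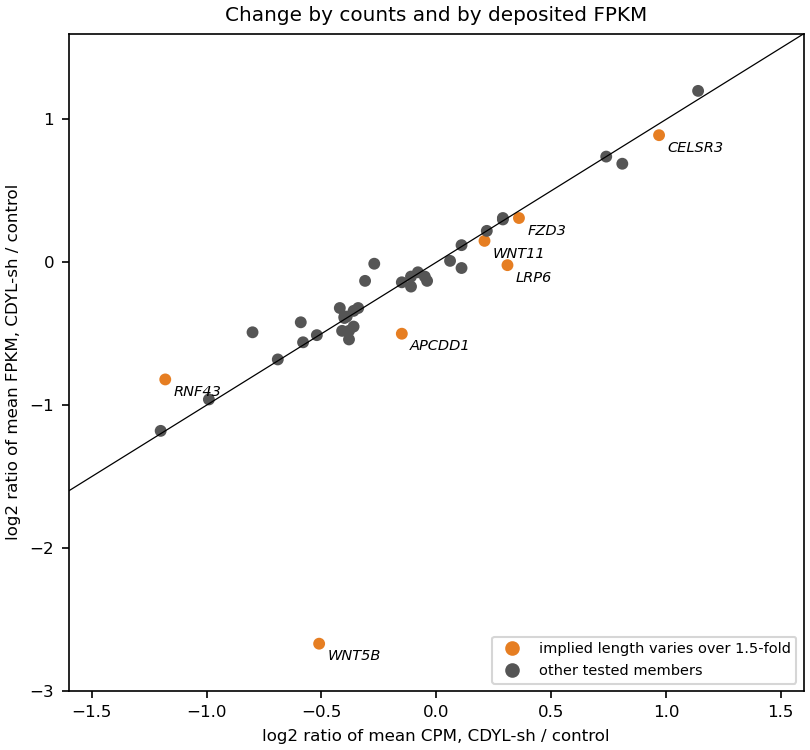
Log2 ratio of the mean FPKM (y axis) against that of the mean CPM (x axis), CDYL-sh over control, 1 point for each tested gene, with the line of equality. Orange points are the 7 genes whose implied length varies over 1.5-fold between libraries. WNT5B lies far under the line, at -2.67 by FPKM and -0.51 by CPM.

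Fold changes moved with GC content in these libraries. Among all tested genes with transcripts under 45% GC, 22.1% rose and 6.34% fell. From 45% to 55% GC 8.13% rose and 15.7% fell, and at 55% GC or more 10.2% rose and 15.0% fell. Of the 8 members under 45% GC, LGR5 and ROR1 rose and VANGL1 fell. Of the 14 from 45% to 55%, 0 rose and 6 fell, and of the 19 of 55% or more, CELSR3 rose and 5 fell. With offsets for GC content and transcript length, 6 members were higher and 14 lower, while over all genes 2828 (17.5%) were higher and 2361 (14.6%) lower, so calls were more frequent throughout. ROR2 was lost, WNT7B, FZD9 and DKK1 passed as higher, and FZD4, LRP5 and LGR4 passed as lower. The log2 fold change with these offsets was 1.12 for LGR5, 0.93 for CELSR3, -1.03 for RNF43 and -0.95 for RYK.

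Wnt genes beyond the 52 were counted over 4 further lists, to be read against the 13.6% of all tested genes that rose and the 12.1% that fell. Of 35 other extracellular genes of the pathway, 17 were tested, 1 rose (5.88%) and 5 fell (29.4%), and the median log2 fold change was 0.01. SULF2, a sulfatase that edits the heparan sulfate on which Wnt ligands sit, fell from 108 and 105 CPM to 65.3 and 56.8 CPM (log2 fold change -0.80 ± 0.11 SE, adjusted p = 4.86e-05). TPBG, a membrane protein that dampens beta-catenin signalling, fell (-0.57), as did WNT10B (-0.71), and TMEM131L, which lowers LRP6, rose (0.58). The R-spondins, which bind the LGR receptors and are named here after their values were seen, had 0 to 4 counts in each library and were not tested.

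Of 38 intracellular genes of the canonical branch, 37 were tested, 4 rose (10.8%) and 7 fell (18.9%). BCL9, a coactivator of beta-catenin, fell from 44.4 and 43.8 CPM to 22.1 and 22.2 CPM (log2 fold change -0.99 ± 0.12 SE, adjusted p = 1.64e-05). AMER1, a scaffold of the destruction complex, fell by 1.24 on the log2 scale (adjusted p = 1.7e-05). APC, the scaffold with which AMER1 works, rose from 10.6 and 8.44 CPM to 16.9 and 19.5 CPM (log2 fold change 0.93, adjusted p = 0.000507). CTNNB1, the gene on which the study turns, was at 397 and 384 CPM in control and 288 and 240 CPM in CDYL-sh (log2 fold change -0.56 ± 0.11 SE, adjusted p = 0.00129).

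Of 25 genes commonly used as Wnt targets, 21 were tested, 4 rose (19.0%) and 6 fell (28.6%). SOX4 fell from 46.9 and 44.6 CPM to 19.4 and 16.7 CPM (log2 fold change -1.34, adjusted p = 1.5e-06), and FGF18 fell (-0.87, adjusted p = 1.16e-05). JUN (0.81, adjusted p = 8.41e-05) and CD44 (0.58, adjusted p = 0.00058) rose. Of 37 effectors of planar polarity and of the non-canonical branch, 33 were tested, 4 rose (12.1%) and 3 fell (9.09%), with a median log2 fold change of 0.08. The kinases ROCK1 (0.77, adjusted p = 0.000463) and ROCK2 (0.76, adjusted p = 0.00331) and the formin DAAM1 (0.64, adjusted p = 0.0199) rose, and FUZ, a gene of cilia and polarity, fell (-0.50, adjusted p = 0.0284). Among the tested CELSR, VANGL and PRICKLE1 genes 5 of 6 were lower, and among the effectors 3 of 33. Frizzled and Dishevelled genes are in neither count, and this difference was not tested.

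**Figure D5:**
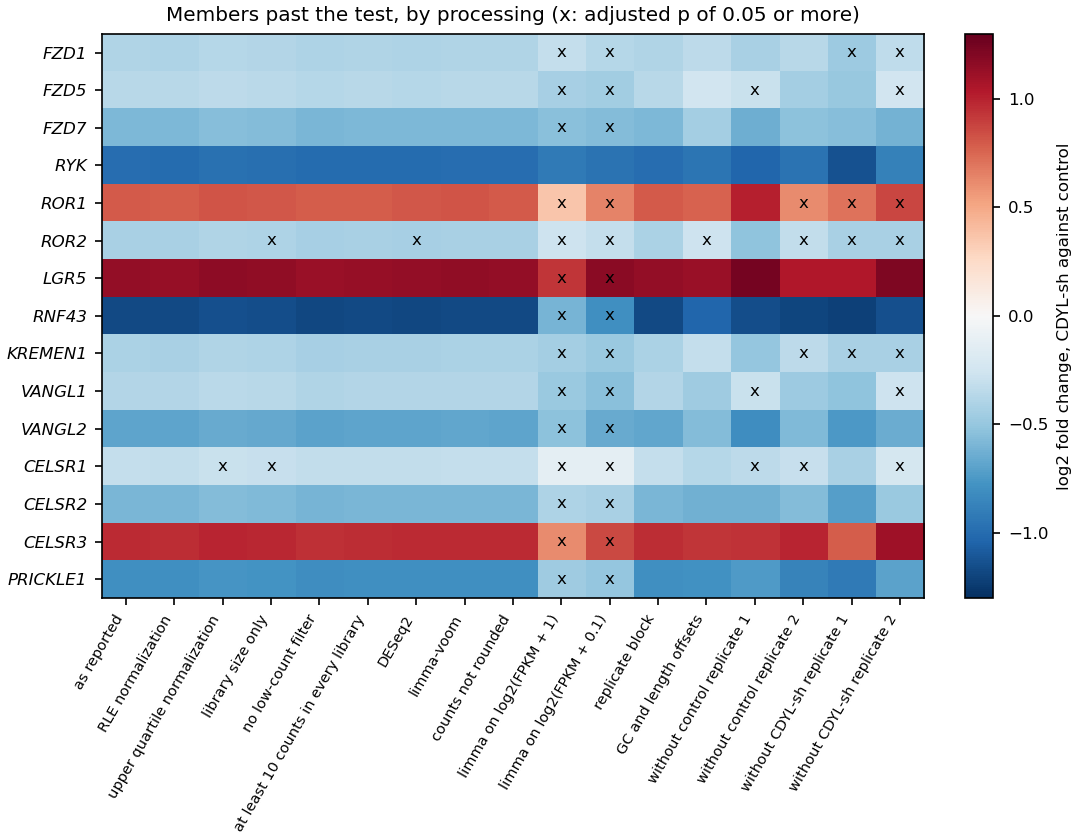
Log2 fold change (colour, CDYL-sh against control) of the 15 genes that passed the test, by row, under the fit as reported and 16 alternatives, by column. A cross marks an adjusted p of 0.05 or more. All 15 keep their colour, and so their direction, in every column, and RYK is the only row without a cross.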

How the data were processed

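Expected counts and FPKM of 58522 genes, as deposited by the authors, were used for all 4 libraries. The study made TruSeq libraries, read them as paired ends on an Illumina HiSeq instrument, and used TopHat for alignment to GRCh38.p10. RSEM and edgeR are named in the submitters' processing notes. The alignment is stated to have used an orientation mode, and whether the counting then used strand, like the annotation release, is not given in the sources used here. The authors' FPKM are fragments per kilobase scaled to depth, and how the gene length was set is not given in the sources used here.

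Expected counts were rounded to whole numbers, filtered with filterByExpr (16158 genes kept), normalised by TMM and tested with edgeR 4.0.16 (glmQLFit and glmQLFTest, R 4.3.3), CDYL-sh against control, with Benjamini-Hochberg adjustment over all genes tested and a threshold of 0.05. Log2 fold changes used a prior count of 2, and the common dispersion was 0.00971. With 2 libraries against 2, the exact permutation test cannot go below 0.333. The steps were also run on simulated counts that gave every gene the common dispersion, a simpler setting than these data. No result here rests on that run. Symbols, positions, lengths and GC content came from GENCODE 44 and promoters from RefSeq. All 52 symbols were matched.

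Every member is accounted for: those past the test with the value of each library, the others more briefly, and up to 4 genes of each further list by adjusted p. The Dishevelled genes and PRICKLE3 are named in addition, after their values were seen. The members and lists were chosen with earlier results of these data known. Alternative fits took RLE, upper quartile or plain library-size scaling, dropped the count filter or asked for 10 counts in all 4 libraries, and used DESeq2 1.42.0, limma-voom (limma 3.58.1) or unrounded counts. Others ran limma on the FPKM (log2, pseudocount 1 or 0.1, mean of at least 0.5 FPKM), added a replicate block or offsets for GC content and length, or left out each library in turn.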

Additional observations from a re-analysis of the deposited data

How the results depend on the processing

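Over the 41 tested genes and 16 alternatives, 572 values stayed on their side of the threshold, 51 lost the call and 30 gained it. In 16 of the 572 the estimate took the other sign, in 9 genes that did not pass as reported (WNT9A, WNT11, PORCN, WLS, FZD2, LRP6, SFRP2, NOTUM and APCDD1), and none of the 15 called genes changed direction. With limma on log2 FPKM and a pseudocount of 1 or 0.1, the calls over all genes were 461 and 507 (224 and 255 higher, 237 and 252 lower), and those among the members 0 and 0 higher and 2 and 2 lower. The cause was not tested. With GC and length offsets 6 members were higher and 14 lower, and 2828 and 2361 of all genes. Leaving out 1 library at a time gave 2082 to 4006 calls over all genes, 1159 to 2078 higher and 923 to 1928 lower, and 2 to 6 members higher and 6 to 12 lower, where a library left alone in its group was given the spread of the other group. The lowest counts over all genes came without CDYL-sh library 2, the least deep.

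The deviations of same-numbered libraries from their group means correlated at 0.03 over the genes, which does not settle whether the replicate numbers pair the libraries. With a replicate block 5 members were higher and 16 lower, and 5393 of all 16158 genes tested passed, against 4157 as reported, so calls were more frequent throughout. No scaling moved the median log2 fold change of all genes beyond 0.03. Genes under about 3 counts per library could not be told from absent at this depth.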
